A study of Homo sapiens with 18 samples.

Results

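The peaks described here are MAX peaks listed for cells with a wild-type MYC copy and for cells with the MYC mutant named 3A. They were missing from the list of the mutant named 7A. They were chosen by presence in the 3 lists, as the peaks of the WT list that shared at least 1 bp with a peak of the 3A list and none with a peak of the 7A list, and are called 3A-shared peaks below. There were 2479 of them among 34622 WT peaks, or 7.16% (95% exact interval 6.89 to 7.44). Because presence in the lists selected them, this count and the strengths that go with it are descriptions.

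The cells were U2OS, a human osteosarcoma line, and sites of MAX were mapped by immunoprecipitating chromatin and sequencing it. All groups shared a knockout of the cells' own MYC and a doxycycline-inducible MYC copy: 3A with doxycycline, 3A without it, 7A with it, 7A without it, WT with it and WT without it. The drug was given at 1 µg/ml over 24 h, and mouse cells of the NIH3T3 line made up 10% as a spike-in. The labels describe 18 libraries, of which 12 are MAX immunoprecipitations in 6 groups of 2 and 6 are inputs; they do not say which residues the mutants change or whether a line is 1 clone. Per MYC form 1 peak list was analysed, with 27294 peaks in 3A, 25159 in 7A and 34622 in WT, and none of the 3 lists separates doxycycline or replicates. Each value therefore has no replicate check, no difference between MYC forms was tested, and intervals cover counting error only. Library depth is not given in the lists.

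MAX is a basic helix-loop-helix leucine zipper protein that pairs with MYC, with itself or with the MXD, MNT and MGA repressors. MYC needs this partner to hold DNA. The pairs favour the E-box CACGTG and bind related spellings less tightly, often at active promoters and enhancers, and strongly expressed MYC is known to spread to weaker sites.

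The sequences behind the peaks could be read where a summit lay inside a promoter window, defined as 250 bases before to 50 bases after a RefSeq transcription start (GRCh38.p14). The 6 windows printed here belong to the strongest such peaks at outer gene ends, so that the presence or absence of an E-box can be seen beside the binding values. Capitals mark CACGTG, the E-box itself, and its variants on either strand: CACGCG with a CG end, CATGTG with a TG core, or CATGCG with changes at both places. They are ZNF296, chr19:45076429-45076728, minus strand; YLPM1, chr14:74763066-74763365, plus strand; OTUD4, chr4:145179631-145179930, minus strand; RBM27, chr5:146203355-146203654, plus strand; ZNF700, chr19:11924857-11925156, plus strand; and C2CD4A, chr15:62066727-62067026, plus strand.
ZNF296: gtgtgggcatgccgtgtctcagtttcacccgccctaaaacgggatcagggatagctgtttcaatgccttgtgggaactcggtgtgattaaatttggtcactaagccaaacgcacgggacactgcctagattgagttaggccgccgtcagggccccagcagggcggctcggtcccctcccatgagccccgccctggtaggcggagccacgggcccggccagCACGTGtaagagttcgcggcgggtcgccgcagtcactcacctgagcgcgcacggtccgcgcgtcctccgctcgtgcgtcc
YLPM1: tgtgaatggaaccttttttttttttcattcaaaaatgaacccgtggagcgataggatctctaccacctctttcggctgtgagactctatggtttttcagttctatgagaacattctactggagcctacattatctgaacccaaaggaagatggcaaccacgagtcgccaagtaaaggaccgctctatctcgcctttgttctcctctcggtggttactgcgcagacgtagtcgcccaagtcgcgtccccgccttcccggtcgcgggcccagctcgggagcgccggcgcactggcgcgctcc
OTUD4: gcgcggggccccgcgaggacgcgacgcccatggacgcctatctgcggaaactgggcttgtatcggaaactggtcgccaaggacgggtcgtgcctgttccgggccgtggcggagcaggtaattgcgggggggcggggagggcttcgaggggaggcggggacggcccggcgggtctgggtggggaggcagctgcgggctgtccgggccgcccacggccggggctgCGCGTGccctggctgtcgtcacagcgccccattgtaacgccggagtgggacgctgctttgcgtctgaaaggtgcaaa
RBM27: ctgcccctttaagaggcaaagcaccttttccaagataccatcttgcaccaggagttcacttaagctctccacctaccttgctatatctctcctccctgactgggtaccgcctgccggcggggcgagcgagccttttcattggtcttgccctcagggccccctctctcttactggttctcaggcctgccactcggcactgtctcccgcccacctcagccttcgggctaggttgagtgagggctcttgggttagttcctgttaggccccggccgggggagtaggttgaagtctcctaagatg
ZNF700: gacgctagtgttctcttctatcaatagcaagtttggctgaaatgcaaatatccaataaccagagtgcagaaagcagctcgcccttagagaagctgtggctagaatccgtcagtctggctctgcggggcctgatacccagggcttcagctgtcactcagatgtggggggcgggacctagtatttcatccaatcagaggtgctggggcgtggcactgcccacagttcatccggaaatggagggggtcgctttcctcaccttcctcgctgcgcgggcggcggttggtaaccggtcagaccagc
C2CD4A: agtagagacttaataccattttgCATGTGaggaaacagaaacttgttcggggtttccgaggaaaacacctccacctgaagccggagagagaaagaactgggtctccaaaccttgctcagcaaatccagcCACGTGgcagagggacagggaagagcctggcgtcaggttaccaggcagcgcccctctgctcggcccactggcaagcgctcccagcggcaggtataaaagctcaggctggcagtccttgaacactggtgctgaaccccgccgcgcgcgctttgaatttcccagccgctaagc

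Of these windows, those of ZNF296 and C2CD4A each held CACGTG. At ZNF296, a zinc-finger gene, the fold enrichment was 12.5 in 3A and 35.4 in WT, and the middle of the E-box lay 8.5 bp from the WT summit. At C2CD4A the values were 6.80 in 3A and 15.6 in WT, with the E-box again 8.5 bp from the summit. The window of OTUD4, a deubiquitinase gene (10.9 in 3A, 22.6 in WT), held CACGCG alone. YLPM1 (15.4 in 3A, 25.4 in WT), RBM27, an RNA-binding protein gene (13.9 in 3A, 16.5 in WT), and ZNF700 (17.9 in 3A, 15.6 in WT) had none of the 4 spellings in their windows. Strong peaks of this set were thus seen with and without an E-box near the start. Fold enrichment is the authors' linear ratio of a peak summit over its local background; it ranks peaks within its own list, and its size is not comparable between lists.

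The 3A-shared peaks were weak and narrow for the WT list. Their median fold enrichment there was 7.74 (quartiles 5.79 and 10.9), against 7.39 for WT peaks kept in 7A and not in 3A, 13.4 for WT peaks kept in both mutant lists and 7.54 for those kept in neither. Their median WT width was 370 bp, against 385 bp, 744 bp and 323 bp in those classes. Coverage at the summit, solved from the deposited values on the scale of the WT list, had a median of 90.5, against 84.9, 192.8 and 75.2. By fold enrichment, 18.4% of the 3A-shared peaks had a partner in the upper 50% of the 3A list, and 26.0% of them lay in the upper 50% of the WT list. Strength also decides whether a peak passes a caller's threshold, so these values are tied to the choice of the peaks.

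The share of WT peaks that were 3A-shared went down with WT strength, at 12.3% (11.2 to 13.4) among the weakest 10% of WT peaks and 0.866% (0.585 to 1.23) among the strongest 10%. The share kept in 7A and not in 3A ran below it, at 5.75% and 0.318%. Over the whole list 1042 WT peaks were of this reverse kind, so that 3A-shared peaks were 2.38 times as many. The 3A list is the longer of the mutant lists. With that list alone reduced to its strongest 25159 peaks, the length of the 7A list, 1908 WT peaks were 3A-shared and 2148 were of the reverse kind, so that the order of the classes turned round. With the WT list alone reduced to that length the counts were 1301 and 499, and with all 3 lists reduced they were 1130 and 946.

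**Figure D1:**
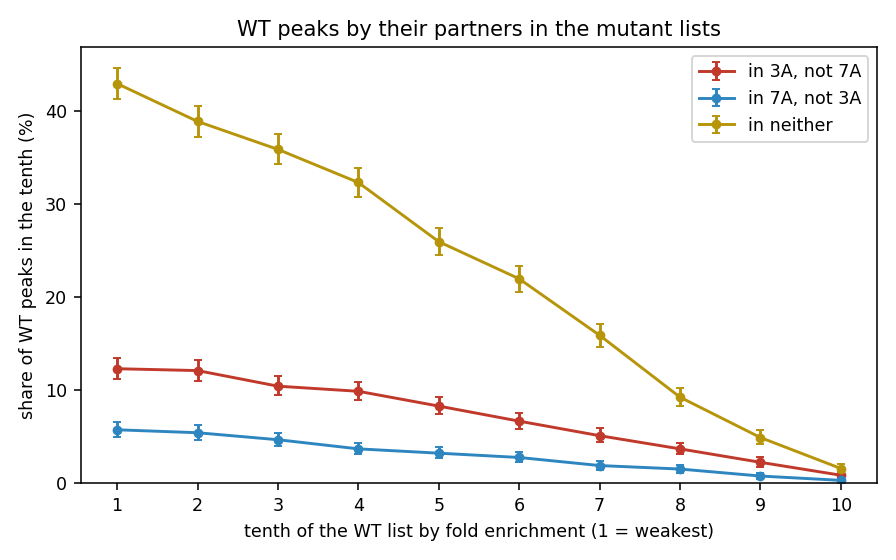
Share of WT peaks (y axis, %) that had a partner in 3A and not 7A, in 7A and not 3A, or in neither mutant list, in 10 equal bins of the WT list ranked by fold enrichment (x axis, 1 is the weakest); bars are 95% exact intervals. All 3 shares go down with strength, and the share of 3A-shared peaks goes from 12.3% to 0.866%.

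Most 3A partners had a summit close to the WT summit. Overlap with a 3A peak was part of the rule, so this closeness is tied to the choice of the peaks. The smallest overlap of a 3A-shared peak with its partner was 164 bp, so no peak entered the set by a few shared bases. The summits lay a median of 14 bp apart (quartiles 6 and 33 bp), as in WT peaks kept in both lists (median 14 bp), and 90.7% were within 100 bp. The remaining 230 peaks had a 3A summit more than 100 bp away, and 17.0% of those had a 7A peak within 500 bp, against 5.78% of the 2249 with near summits. For 20 of the 2479 peaks, the 3A partner itself touched a 7A peak elsewhere along its length. The lowest −log10 q among the 3A partners was 5.95, and the lowest value of any peak in the 7A list was 5.69. These values come from different libraries of unknown depth, so they do not show whether a site would pass in 7A. The partners' median fold enrichment in the 3A list was 7.58 and their median width 330 bp.

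The rank order of the peaks was only partly shared between the lists. The classes compared here differ in their range of WT fold enrichment. Its quartiles were 5.79 and 10.9 in the 3A-shared peaks and 5.60 and 10.5 in the reverse class. In peaks kept in both lists they were 8.54 and 22.2. The part of this range in the rho values was not tested. Over the 2479 peaks Spearman's rho between 3A and WT fold enrichment was 0.40, against 0.41 between 7A and WT fold enrichment in the reverse class and 0.68 between 3A and WT in peaks kept in both lists; the points come from the same libraries, and this is a description. At PRLHR, which encodes the receptor of prolactin-releasing peptide, the values were 39.7 in 3A and 26.4 in WT, with the nearest 7A peak 103701 bp away.

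**Figure D2:**
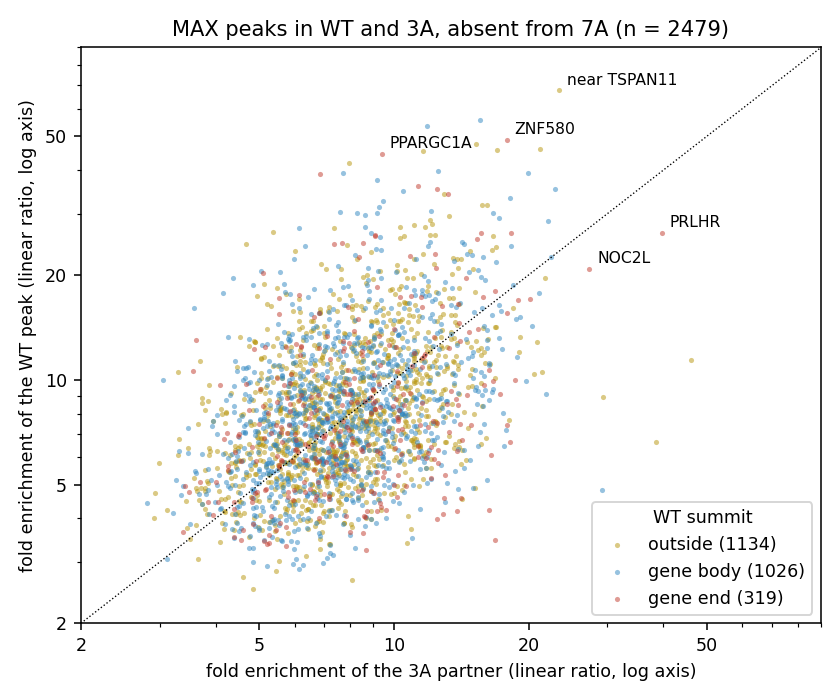
Fold enrichment of each 3A-shared peak in the 3A list (x axis) and in the WT list (y axis), both linear ratios on log axes, with 1 point per peak, coloured by the position of the WT summit; the dotted line marks equal values. Most points lie under 20 in both lists, the peak near TSPAN11 is the highest in WT at 67.7, and PRLHR is the highest gene-end peak in 3A at 39.7.

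Most of the 3A-shared peaks had no 7A peak close by. The gap to the nearest 7A peak had a median of 16809 bp (quartiles 5217 and 53198.5 bp) and ran from 113 bp to 1832000 bp. Within 500 bp of 169 peaks (6.82%, 5.86 to 7.88) there was a 7A peak, and within 1000 bp of 264 (10.6%). For WT peaks kept in neither mutant list, 5.94% (5.43 to 6.49) had a 7A peak within 500 bp, and for the reverse class 11.9% (10.0 to 14.0) had a 3A peak that near. The nearest misses are named by the gene with the nearest end, with the gap to 7A in brackets. They were LOC124909483 (113 bp), PINK1, which encodes a mitochondrial kinase (116 bp), H4C2, a histone gene (116 bp), RNPEPL1 (133 bp) and ZDHHC12 (157 bp). The LOC124909483 peak lay outside genes, 17427 bp from the end of that gene, and the others were at gene ends. On the other side of the rule were the WT peaks with a 3A partner that shared the fewest bases with a 7A peak. Named in the same way, with the shared bases in brackets, they were AFAP1 (70 bp), PREP (74 bp), NOS1 (91 bp), PTPRN2 (165 bp) and ZNF597 (172 bp). The distances to the gene end were 78199, 54400, 1046, 26355 and 537 bp in that order.

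**Figure D3:**
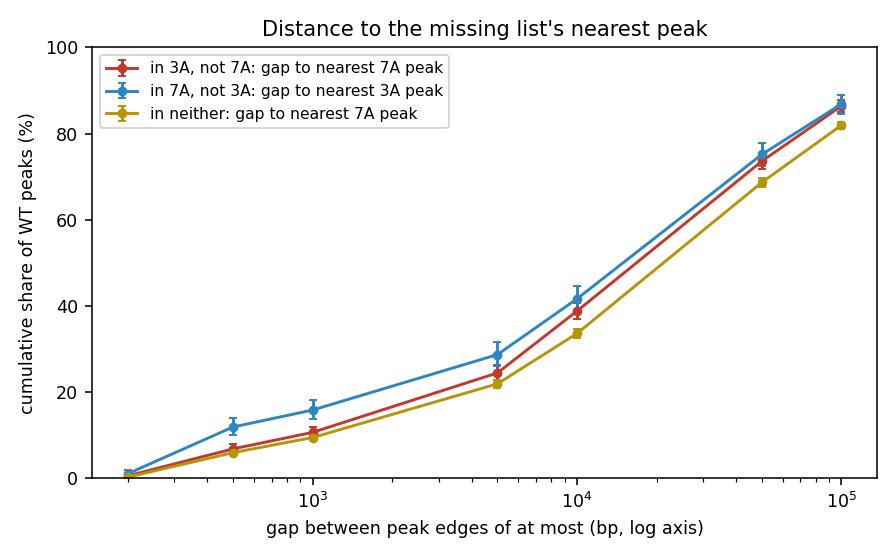
Cumulative share of WT peaks (y axis, %) whose nearest peak in the list that lacks them lies within a given gap between edges (x axis, bp, log axis); bars are 95% exact intervals. Among 3A-shared peaks 6.82% have a 7A peak within 500 bp and 73.6% within 50000 bp.

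Position was not used to choose the peaks. In 319 of the 2479 peaks the summit fell no more than 1000 bp from either end of a protein-coding gene, or 12.9% (11.6 to 14.3). This share was 18.0% (15.8 to 20.5) in WT peaks kept in 7A and not in 3A, 41.4% (40.7 to 42.0) in those kept in both lists and 8.64% (8.03 to 9.28) in those kept in neither. A further 1026 peaks (41.4%, 39.4 to 43.4) lay inside a gene, and 1134 (45.7%, 43.8 to 47.7) lay outside genes. More than 50000 bp from any gene end were 35.3% of them (33.5 to 37.3), against 34.0% (31.1 to 36.9) in the reverse class, 19.9% (19.4 to 20.4) in the class of both lists and 39.6% (38.5 to 40.6) in the class of neither. The median distance to an end was 24931 bp, against 22122.5 bp, 4207.5 bp and 31015 bp. When summits within 100 bp, in place of shared bases, decided which peaks matched, the gene-end share was 23.4%, against 33.7% (31.5 to 35.9) in the reverse class. Using RefSeq transcription starts in place of gene ends, on all chromosomes but 8, whose windows were not used here, 279 of 2364 peaks (11.8%, 10.5 to 13.2) lay within 1000 bp of a start, against 15.8%, 39.6% and 7.21%.

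Among peaks of like WT fold enrichment the share at gene ends was also lower than in the class of both lists. Among the weakest 10% of WT peaks, 16.0% (12.6 to 19.8) of the 3A-shared peaks were at gene ends, against 20.8% of those kept in both lists. The interval of the latter began at 18.6%, so these intervals overlapped. In that bin the share was 18.1% in the reverse class and 9.03% (7.62 to 10.6) in the class of neither. Among the strongest 10% it was 6 of 30 3A-shared peaks (interval 7.71% to 38.6%), against 57.6% in the class of both lists. There it was 5 of 11 in the reverse class and 16.4% (7.77 to 28.8) in the class of neither. A share under that of the class of both lists was thus not particular to the 3A-shared peaks in these bins. Coverage and width were not matched in these bins.

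**Figure D4:**
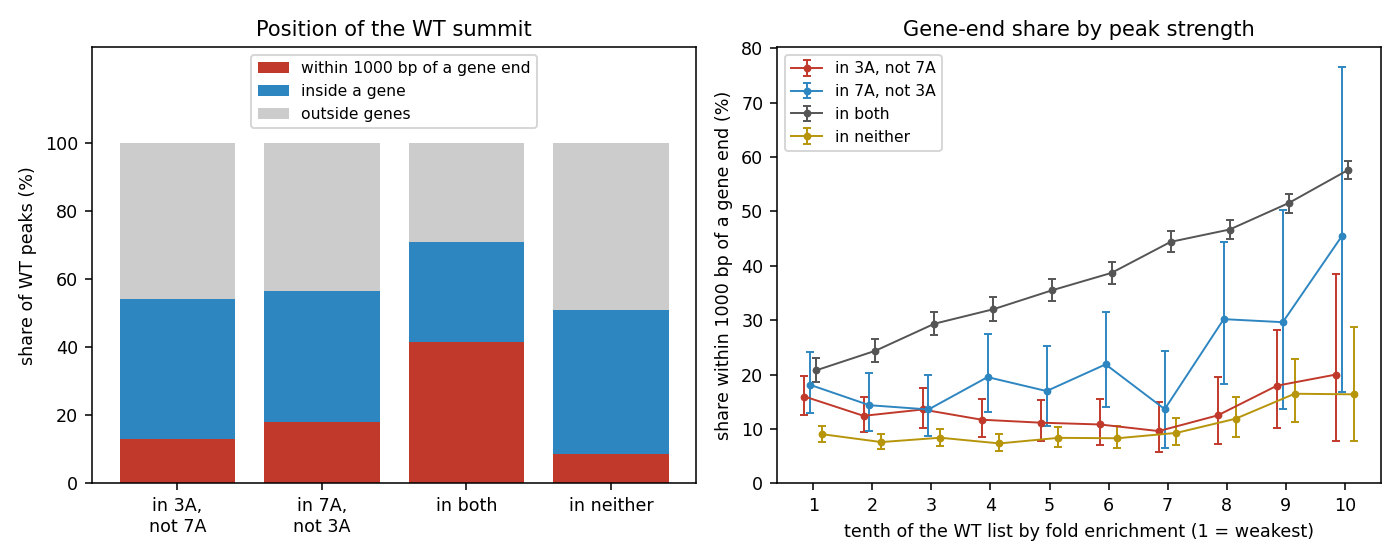
Left, share of WT peaks (y axis, %) at gene ends, inside genes and outside genes for peaks kept in 3A and not 7A, in 7A and not 3A, in both and in neither. Right, gene-end share (y axis, %) in 10 bins of WT fold enrichment (x axis) with 95% exact intervals; the 3A-shared peaks go from 16.0% to 6 of 30 and lie under the class of both lists in all 10 bins.

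Of the 10 strongest 3A-shared peaks in WT, 8 lay more than 1000 bp from any end of a protein-coding gene. The first, at chr12:30844495-30844838, lay 82109 bp from TSPAN11, a tetraspanin gene, with 23.4 in 3A and 67.7 in WT. It was followed by a peak inside ERCC1, which encodes a DNA repair endonuclease subunit (15.6 in 3A, 55.7 in WT), and by one inside ADGRL2, a latrophilin gene, 29434 bp from its nearest listed start (11.8 in 3A, 53.7 in WT). The fifth to eighth were nearest to the histone gene H4C8 (15.3 in 3A, 47.6 in WT), C11orf24 (21.2 in 3A, 46.1 in WT), LDB2 (17.0 in 3A, 45.6 in WT) and TPBG (11.6 in 3A, 45.5 in WT), at distances between 4316 and 58787 bp from a gene end. The tenth, 1041 bp from EDNRA, the endothelin A receptor gene, had 7.93 in 3A and 42.0 in WT. At ERCC1 and EDNRA a 7A peak lay 215 and 420 bp away, so that the gene itself was not without 7A signal nearby; at LDB2 the nearest was 185042 bp away.

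At gene ends the strongest 3A-shared peak in WT was at ZNF580 (17.9 in 3A, 49.0 in WT), where another gene-end peak was present in 7A. PPARGC1A, which encodes a coactivator of mitochondrial biogenesis, followed with 9.40 in 3A and 44.5 in WT, and the nearest 7A peak lay 1709 bp away. CASKIN1, a synaptic scaffold gene (6.84 in 3A, 38.9 in WT), OR2Z1, an olfactory receptor gene (11.3 in 3A, 36.0 in WT), and ADAM8, a metalloprotease gene (13.2 in 3A, 34.2 in WT), were next beside ZNF296. At OR2Z1 and ADAM8 the nearest listed starts were the genes' own, 10054 and 14988 bp away. The CASKIN1 summit lay 242 bp from an end of that gene. The nearest listed start was that of BRICD5, 14016 bp away. No start was thus listed at that end of CASKIN1, and whether transcription starts there was not read. The ZNF296 peak also lay within 1000 bp of an end of GEMIN7, a gene of splicing particle assembly.

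Below these came the pair HRC and PPFIA3 (18.3 in 3A, 26.4 in WT), NUDT11 (15.7 in 3A, 26.4 in WT), PRLHR, PCF11, a cleavage factor gene (9.06 in 3A, 26.0 in WT), JPH1, YLPM1, PDE1B, a phosphodiesterase gene (7.68 in 3A, 24.8 in WT), SLC61A1 and PGGHG (7.37 in 3A, 24.6 in WT). Among these, HRC, PPFIA3, PCF11, JPH1, PDE1B and SLC61A1 had another gene-end peak in 7A, and NUDT11, PRLHR, YLPM1 and PGGHG had none.

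Ranked by the 3A list, PRLHR led the gene-end peaks, and the pair HRC and PPFIA3 and, at rank 10, ZNF580 were again among the first 10. After PRLHR came NOC2L, which encodes a nucleolar regulator (27.3 in 3A, 20.8 in WT), STEEP1 (20.1 in 3A, 17.1 in WT) and THUMPD1, a tRNA acetylation factor gene (18.9 in 3A, 17.0 in WT). TRAF2, a TNF receptor adaptor gene, had 18.6 in 3A and 9.98 in WT, and PPP4C, a phosphatase gene, had 18.2 in 3A and 6.63 in WT, 72 bp from its start. THUMPD1 had a 7A gene-end peak 210 bp from the 3A-shared peak, whereas NOC2L, STEEP1, TRAF2 and PPP4C had none at either end. The pair CDCA2 and KCTD9 (17.9 in 3A, 7.43 in WT) had 7A gene-end peaks too, and its 3A summit lay 1243 bp from the WT summit.

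The widest 3A-shared peaks lay at RAB26, a small GTPase gene (599 bp in its 3A partner, 3409 bp in WT), WNT10A (1341 bp in 3A, 2450 bp in WT), TBL1X (713 bp in 3A, 2436 bp in WT), HES6 (669 bp in 3A, 2302 bp in WT) and BBC3, which encodes the apoptosis protein PUMA (1724 bp in 3A, 2251 bp in WT). In all 5 the 3A partner was narrower than the WT peak, as in 64.0% of the whole set. The same held for 71.2% of WT peaks kept in both lists.

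Counted by gene, 345 of 19974 protein-coding genes (1.73%) had a 3A-shared peak within 1000 bp of an end. Of these, 232 had no 7A peak at either end (1.16% of all genes), and 113 had one. The count of 345 depended on the settings: it was 134 with lists of equal length, 902 when summits within 100 bp counted as shared, and 215 and 528 with gene-end windows of 500 and 2500 bp. A missing 7A peak was thus not the same as a gene without 7A binding.

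Each gene group held between 0 and 4 genes with such a peak. Over all protein-coding genes the share with one was 1.73%. Among genes with any WT peak at an end it was 345 of 11471. Of 40 MYC target genes of growth none had one, and 38 had some WT peak at an end. The same count of 0 was found for 38 genes of TGF-beta and BMP signalling and 44 of actin and focal adhesion. It was also found for 39 genes of lysosome and autophagy, 28 other E-box binding factors and 25 p53 targets. Cytosolic ribosomal protein genes had 2 of 78 (2.56%): RPL28 (14.6 in 3A, 9.02 in WT), 2 bp from its start, and RPS27, which shares its peak with RAB13 (6.99 in 3A, 6.82 in WT), and neither had a 7A peak at an end. Within the MAX network it was 2 of 13 (15.4%). One was MNT, which encodes a repressor partner of MAX (8.48 in 3A, 11.7 in WT), with another 7A peak 429 bp away. The other was MYC itself, at chr8:127735149-127736436, 241 bp from the outer end where its transcription starts, with 10.5 in 3A and 8.48 in WT; the nearest 7A peak lay 17531 bp away. These cells lack a working MYC gene of their own, and the lists do not show what the edited locus looks like.

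Among matrix genes 3 of 40 (7.50%) had such a peak: TNC, the tenascin C gene (10.3 in 3A, 17.3 in WT), LAMB2 (12.5 in 3A, 6.29 in WT) and COL6A1 (5.12 in 3A, 3.45 in WT), of which TNC and COL6A1 had no 7A peak at an end. The LAMB2 peak also lay at an end of USP19. Among genes of neural, epithelial and other lineages it was 4 of 40 (10.0%), with GRIN2B (3.57 in 3A, 10.6 in WT), CLDN3, a tight junction gene (10.2 in 3A, 9.86 in WT), SFTPC, which shares its peak with LGI3 (5.86 in 3A, 8.54 in WT), and MYOD1, the muscle regulator (8.77 in 3A, 6.49 in WT). SFTPC alone of these had a 7A gene-end peak. The Hippo pathway had 2 of 27 (7.41%): AXL, a receptor tyrosine kinase gene (17.2 in 3A, 9.08 in WT), without a 7A peak at an end, and SAV1 (6.35 in 3A, 6.54 in WT), with one 229 bp away. The remaining lists had 1 each: FOSB of 32 immediate early genes, NKD1 of 38 WNT genes, CDK2 of 42 cell cycle genes and FGFR1 of 33 bone and mesenchymal genes, the last with no 7A peak at an end (11.5 in 3A, 10.9 in WT). Counts this small, those of 0 included, are given beside the 1.73% of all genes and were not tested.

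As deposited, promoter windows that held a 3A-shared summit held an E-box in a lower share than those of WT peaks kept in both lists. The CACGTG share of the 3A-shared windows changed with the length of the lists. There were 125 such windows of protein-coding genes, counting for each peak the window with the nearest start. CACGTG was present in 9 of them, or 7.20% (3.35 to 13.2), against 2 of 67 in the reverse class, 820 of 5109 (16.1%, 15.1 to 17.1) in the class of both lists, 22 of 166 (13.3%, 8.50 to 19.4) in the class of neither and 8.32% of all 22012 promoter windows. With lists of equal length the CACGTG share of the 3A-shared windows was 14.0%, and with the WT list alone shortened it was 15.2%, both above the upper bound of 13.2%. These 2 shares rest on fewer windows and have no intervals here. The share in the class of both lists was not recomputed at these settings, so the contrast with that class is not known there. Taking the E-box together with its 3 variants, on both strands, at least 1 was present in 26.4% (18.9 to 35.0), against 22.4% (13.1 to 34.2), 49.4% (48.0 to 50.8), 46.4% (38.6 to 54.3) and 33.1% of all windows. As deposited, both intervals of the 3A-shared windows held the share of all windows. GC content had a median of 64.0%, against 67.7%, 67.3%, 66.8% and 62.3%, and the number of CpG sites a median of 21, against 27, 29, 22 and 21. The classes also differ in peak strength and width, and the windows were not matched for either. The part of base composition, strength or width in these shares was not tested.

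Where CACGTG was present, it lay close to the summit. The median distance in the 9 windows was 8.5 bp, against 12.5 bp in the 820 windows of the class of both lists, and 8 of the 9 were within 50 bp, against 636 of 820. Beside ZNF296 and C2CD4A these windows belonged to C1orf167 (15.4 in 3A, 14.0 in WT), TMEM272, FEZ1, an axon growth gene (6.20 in 3A, 12.4 in WT), SLMAP, MAPRE2, APC, the WNT pathway tumour suppressor (12.5 in 3A, 8.77 in WT), and ETV1, an ETS factor gene (11.3 in 3A, 6.48 in WT). At APC the E-box was 158.5 bp from the summit. The nearest 7A peak lay 29336 bp away at APC and 141081 bp away at ETV1.

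Of the other motifs, the GC box GGGCGG was in 67.2% (58.2 to 75.3) of the 3A-shared windows, against 71.6% (59.3 to 82.0) in the reverse class, 77.2% (76.0 to 78.3) in the class of both lists and 56.3% of all windows. The NRF1 motif was in 4.80% (1.78 to 10.2), against 2.99%, 14.4% (13.5 to 15.4) and 7.35%, and the ETS motif CCGGAAG in 16.0% (10.1 to 23.6), against 17.9%, 23.5% (22.4 to 24.7) and 12.8%. In the class of neither the GC box was in 62.7% (54.8 to 70.0) and the NRF1 motif in 4.82% (2.10 to 9.27). The ETS motif was in 6.02% (2.93 to 10.8) of the windows in that class. The TEAD motif GGAATG was in 16.8% (10.7 to 24.5), against 16.4% (8.49 to 27.5) in the reverse class, 9.40% (8.61 to 10.2) in the class of both lists, 6.02% (2.93 to 10.8) in the class of neither and 12.2% of all windows. AP-1 (TGANTCA), the CCAAT box (CCAAT), RUNX (TGTGGT) and YY1 (AAGATGG) had shares near those of all windows. Of the 12 motifs, the GC box alone had an interval that did not hold the share of all windows. A match says that the letters are present, and not that a factor is bound.

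**Figure D5:**
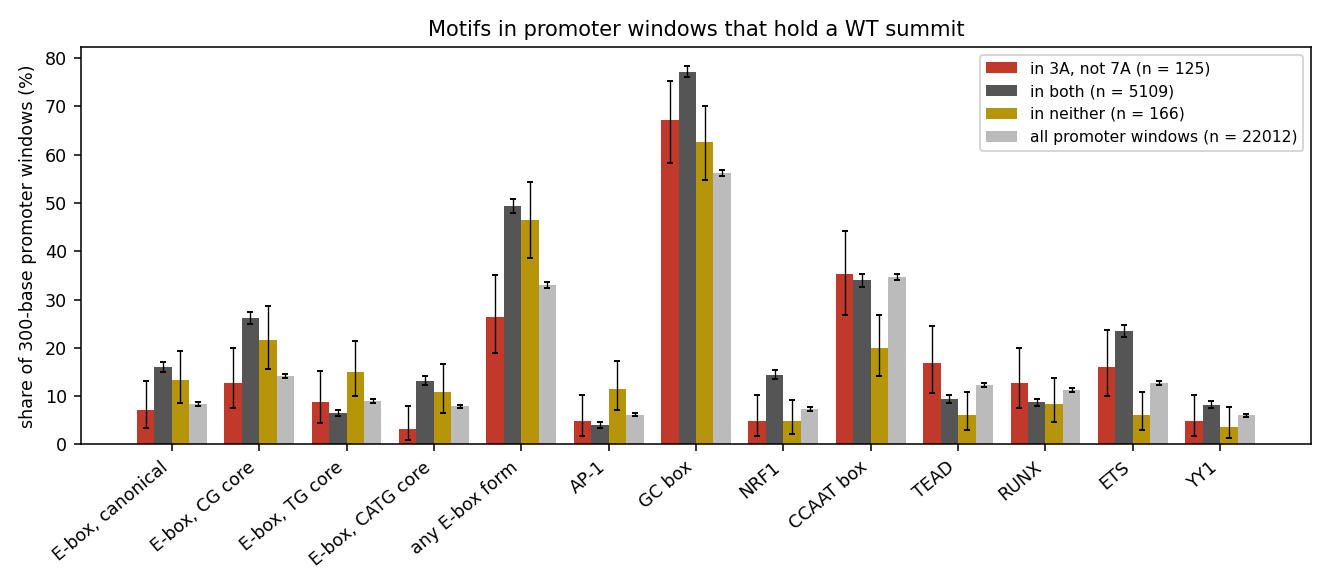
Share of 300-base promoter windows (y axis, %) that hold each motif (x axis) for windows with the summit of a 3A-shared WT peak, of a WT peak kept in both mutant lists or in neither, and for all protein-coding promoter windows; bars are 95% exact intervals. Any E-box form is in 26.4% of the 3A-shared windows, against 49.4% and 46.4%.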

How the data were processed

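MAX ChIP-seq with a mouse spike-in was analysed from the peak lists that the authors deposited, 1 per MYC form. The antibody field of the labels names MAX, while the protocol text describes anti-FLAG; the field was followed. The tools MACS2, Picard, SAMtools, Bowtie2 and cutadapt appear, per the submitters' processing notes, with no version, as do mm10, hg38 and hg19 with no role. Pooling of replicates, the control used and spike-in scaling are not given in the sources used here. The lists have narrowPeak columns: the deposited score, the deposited fold enrichment (a linear ratio), the deposited −log10 p and −log10 q, and the summit offset, which the authors gave in bp from the peak start. Names of alternate contigs are those of hg38; positions count from 1. Columns of other samples numbered 0.

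Overlap needed 1 bp. Gene ends came from the RefSeq gene table and starts and sequences from its promoter table (both GRCh38.p14), which holds no chromosome 8 windows here; exons were not used. Shares have 95% exact Clopper-Pearson intervals. Coverage was solved from fold and −log10 p as MACS2 defines them, which worked for 97.7% of 3A and 96.3% of WT peaks; of 5000 simulated summits 94.5% were solved, 100.0% of them rightly. The design planned no tests, and none were made. The peaks and the 15 gene lists were chosen with earlier results of these data known. Named are the 10 strongest peaks, the 15 strongest at gene ends by WT and 10 by 3A, the 5 widest, up to 4 genes per list, and the peaks nearest the rule's limits; the genes with CACGTG were added after their values were seen. Scripts ran in Python 3.11.15 with SciPy 1.17.1, NumPy 2.4.6, pandas 2.3.3 and, for plots, matplotlib 3.10.9.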

Additional observations from a re-analysis of the deposited data

How the results depend on the processing

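The count of 3A-shared peaks, their gene-end share, median WT fold enrichment, median WT width, the number of genes with one at an end and the CACGTG share were recomputed under other settings. A −log10 q of at least 10, a common −log10 q floor and joining peaks within 100 bp moved none of them beyond their limits. With lists of equal length the count was 1130, the gene-end share 10.5%, the median fold 10.5, the median width 389 bp, the genes 134 and the CACGTG share 14.0%, from shorter lists by construction. With the WT list alone cut to the length of the 7A list these were 1301, 10.4%, 10.4, 397 bp, 150 and 15.2%, and with the 3A list alone cut the median fold was 8.14 and the median width 360.0 bp. With an overlap of 50% of both peaks the count was 2881, the gene-end share 16.1%, the median fold 8.07 and the median width 383 bp, with 510 genes. With summits within 100 bp these were 3437, 23.4%, 8.63 and 446 bp, with 902 genes. Of those 3437 peaks, 2254 were in the set as deposited. The cause of the shifts was not tested. With no 7A peak within 500 bp the gene-end share was 10.8%. Gene-end windows of 500 and 2500 bp gave 8.23% and 19.1%, with 215 and 528 genes. Transcription starts in place of gene ends, and leaving out peaks whose 3A partner touched a 7A peak (chosen after seeing the data, like the cuts of 1 list alone and the CACGTG share under other settings), kept every recomputed value within its limits. No paired analysis was possible because the lists hold no replicates, so none could be left out either. Without replicates or library depth, a peak missing from the 7A list may be one that fell short of its threshold.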

Other observations

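Some 3A-shared peaks away from protein-coding gene ends lay at starts of long noncoding RNA genes. Outside chromosome 8, 64 of 2057 such peaks (3.11%, 95% exact interval 2.40 to 3.96) had a summit within 1000 bp of a listed lncRNA start, against 3.19% (2.09 to 4.64) of WT peaks kept in 7A and not in 3A, 7.58% (7.13 to 8.05) of those kept in both lists and 3.14% (2.74 to 3.58) of those kept in neither. The strongest were at LOC100129540 (7.58 in 3A, 30.3 in WT), GRID1-AS2 (22.5 in 3A, 22.5 in WT, with the summit 39 bp from the start), LINC02323 (8.66 in 3A, 19.0 in WT) and LOC107986759 (5.13 in 3A, 18.9 in WT).

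The 3A-shared peaks lay on all 22 autosomes and on X. Their share of WT peaks ran from 5.27% (3.96 to 6.86) on chromosome 22 to 8.75% (7.35 to 10.3) on chromosome 9. Runs were picked for holding the most 3A-shared peaks within 1 Mb, so high shares in them follow from the choice. The run with the most 3A-shared peaks within 1 Mb lay on chromosome 19 between 45444378 and 46347518, where 11 of 49 WT peaks (22.4%, against 7.16% of the whole list) were 3A-shared, near ERCC1, FOSB, EML2, IGFL3, IGFL2 and PPP5C, with WT fold enrichments between 6.88 and 55.7; 31 of the 49 were kept in both mutant lists. Runs of 8 followed on chromosome 1 near BCAR3, ABCA4 and ARHGAP29 (26.7% of 30 WT peaks), on chromosome 11 around NPAS4 (18.2% of 44), on chromosome 12 around the keratin genes KRT8 and KRT18 (24.2% of 33), and on chromosome 19 near GRIN2D (12.7% of 63).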
